A study of Caenorhabditis elegans with 39 samples.

Results

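The entries described here are the Caenorhabditis elegans microRNAs (miRNAs) whose number is 1000 or higher, which entered the miRNA registry late. The rule takes every entry of the deposited table with such a number, apart from miR-1018, miR-1019, miR-1020, miR-1022, miR-1821, miR-1829, miR-4816, miR-5551, miR-5592, miR-8196 and miR-8206. It reads the name alone, but the members and the numbers left out were chosen with earlier results of these data known. It gives 174 of the 437 miRNA entries in the table, and the other 263 entries serve as the background. That background includes 27 entries numbered 1000 or more that the rule leaves out. The table covers 39 small RNA libraries made from total RNA of whole worms, 13 each of Alg1E, Alg1A and N2. Alg1E and Alg1A are mutant genotypes in the N2 background, and N2 is the standard wild type strain. The labels do not spell out what the letters A and E stand for, and the series title ties the study to phosphorylation of ALG-1. All genotypes were grown at 25 degrees from synchronized first-stage (L1) larvae and collected hourly from 18 to 30 h after plating, with 1 library per genotype and hour.

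A miRNA is cut from a hairpin precursor by Drosha with its partner Pasha and then by Dicer. The resulting duplex has a 5p and a 3p arm, and an Argonaute protein, in worms mostly ALG-1 or ALG-2, keeps one arm as the guide that finds target mRNAs, while the other arm is usually lost. Numbers are given in the order of registration, so abundant and well studied worm miRNAs such as lin-4, let-7 and miR-1 have low numbers or names from genetics, and high numbers were mostly assigned from deep sequencing. For most of these late entries no function is established. Some arise from whole spliced introns (mirtrons), which bypass Drosha. No mature sequences are printed because no sequence file was used here.

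Depth, as miRNA reads, lay between 1146950 and 4668890 for Alg1E libraries, 1245377 and 4472517 for Alg1A and 1751599 and 4479656 for N2. Reads that fell on no annotated miRNA averaged 49.5% ± 11.4 in the Alg1E libraries, 35.3% ± 9.64 for Alg1A and 37.2% ± 9.48 for N2 (SD, 13 libraries each), and the part of this difference in the results below was not tested. The muscle miRNA miR-1-3p, the intestinal miR-60-3p and the neuronal lsy-6-3p, miR-124-3p and miR-791-3p were read in every library, as whole worms would give. miR-1-3p averaged 109469 CPM in Alg1E, 81919 in Alg1A and 86154 in N2. The neuronal markers differed in direction. In Alg1E and N2, lsy-6-3p averaged 87.1 and 60.9 CPM, miR-124-3p 150 and 187 CPM, and miR-791-3p 12.2 and 8.46 CPM. These ranges overlapped, and the part of these markers in the results was not tested. miR-60-3p lay between 8050 and 29841 CPM in Alg1E, 5239 and 38005 CPM in Alg1A and 20573 and 35985 CPM in N2, and its part in the results was not tested. In whole worms, fewer cells of a type and less RNA per cell cannot be told apart. The Alg1A libraries of 18 and 19 h stood apart, with the lowest levels of miR-1820-5p in that genotype. They also had the lowest muscle and intestinal markers of Alg1A: miR-1-3p stood at 36473 and 17158 CPM, against 66976 to 132881 CPM at its other hours, and miR-60-3p at 7336 and 5239 CPM, against 20044 to 38005 CPM. Reads on no annotated miRNA made up 20.2% of the 18 h library and 59.2% of the 19 h library, the lowest and highest shares in Alg1A. The part of these markers and shares in the results was not tested. No label tells of separate cultures, and the spread behind the p-values is that of hourly libraries, part of which may be technical.

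Most of the late entries were read rarely. Over all 39 libraries, 22 of the 174 had no read, 23 had 1 to 3 reads, 53 had 4 to 38 reads and 49 had 39 or more but too few per library to test. The low-count filter, which asked for more than 3.46 counts scaled to library size (CPM) in at least 13 libraries, left 27, or 15.5% of the late entries, against 82.1% of the other entries. No read at all was found for 12.6% of the late entries and for 4.18% of the others. A count of 0 in 113596501 reads allows a level of up to 0.0264 CPM over the pooled libraries, and this limit covers counting error only. The median late entry had 24 reads in total, against 14285 for the other entries. Of the 174, 119 were read in all 3 genotypes, 8 in Alg1E alone, 7 in Alg1A alone and 5 in N2 alone. At these depths a low count in 1 genotype is not evidence of absence from the others.

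The entries with the lowest numbers were detected most completely. The 21 entries numbered 1021 to 1833 were all read at least once, 9 were tested, and they held 87.3% of all reads of late entries. A single entry, miR-1820-5p, gave 177055 of their 197866 reads. The 40 entries numbered 2207 to 2953 held 2.98%, with 8 tested and 6 without a read. Those numbered 4805 to 4938, also 40, held 6.93%, with 7 tested and 6 without a read. Of 22 entries numbered 5545 to 5595, 1 was tested and 4 had no read, and of 51 entries numbered 8186 to 12134, 2 were tested and 6 had no read. Median reads per entry in these blocks, from the lowest numbers to the highest, were 189, 16.5, 62.5, 16.5 and 22. Above the first block the medians followed no steady order. Both arms were read for 57 of 72 late hairpins listed with 2 arms (79.2%), against 118 of 118 other hairpins. At 10 or more reads for each arm these counts were 31 of the 72 (43.1%) and 117 of the 118.

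In a single library, between 61 and 97 late entries had a read in Alg1E (median 74), between 65 and 101 in Alg1A (median 85) and between 77 and 101 in N2 (median 87). The libraries differ in depth, but the deepest one, Alg1E at 27 h with 4668890 reads, had only 65 late entries. Rarefied to 1146950 reads, the depth of the shallowest library, the expected medians were 64.2 entries in Alg1E, 64.6 in Alg1A and 65.0 in N2. At that depth the ranges were 51.3 to 72.6 in Alg1E, 61.4 to 71.4 in Alg1A and 61.9 to 71.4 in N2. The ranges overlapped, and the Alg1E libraries of 25 h and 27 h, at 51.3 each, lay below every Alg1A and N2 library. For the other entries, the 27 h library was also the lowest of Alg1E at that depth (231), against an Alg1E median of 236. The 25 h library was not low there (238). The 27 h library also had the lowest miR-58a-3p (57373 CPM) and miR-60-3p (8050 CPM) of Alg1E. The part of this in its detection was not tested.

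**Figure D1:**
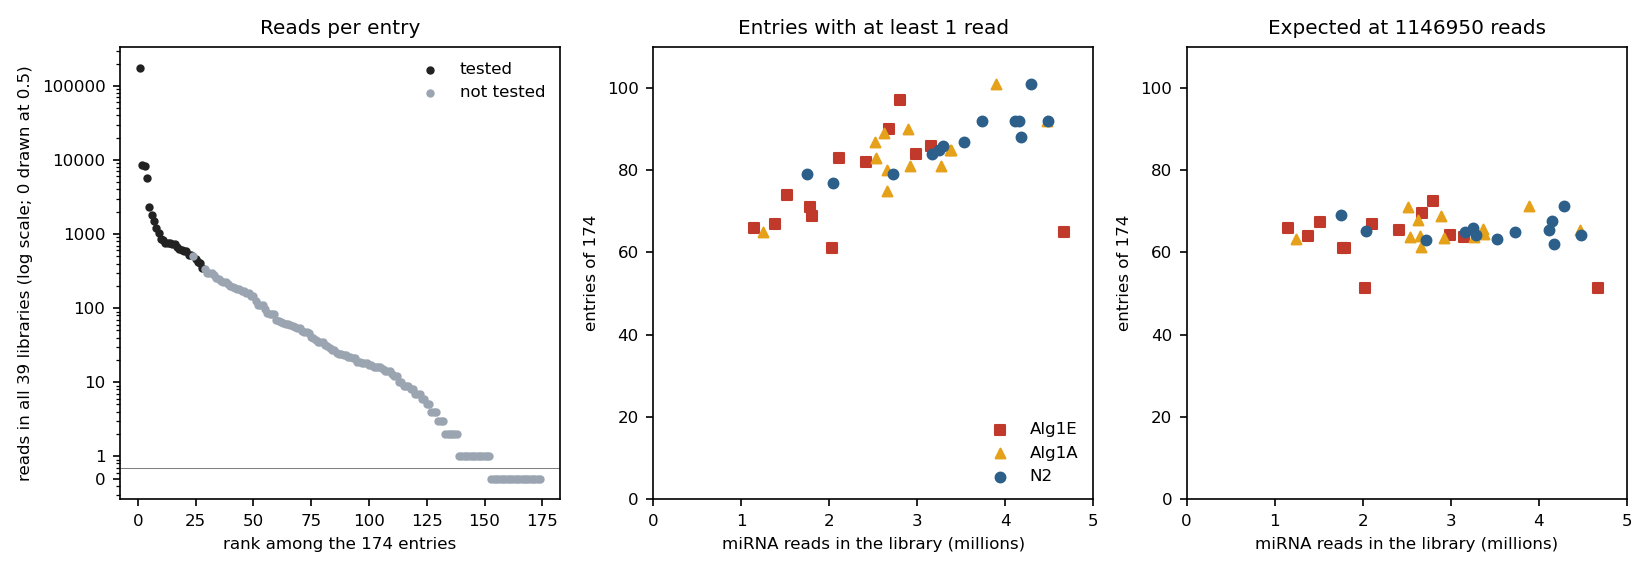
The left panel ranks the 174 late entries by reads summed over 39 libraries on a log scale, with entries without a read drawn at 0.5. The other panels plot, for each library, the number of late entries with at least 1 read and the number expected at 1146950 reads against depth, and in the last panel the Alg1E libraries at 51.3 stand below the rest.

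Together the late entries held 226738 of 113596501 miRNA reads, or 0.200%. A single entry, miR-1820-5p, made up 177055 of them, 78.1%, and ranked 55 by reads among all entries. The late share averaged 0.148% ± 0.0229 over the Alg1E libraries, 0.227% ± 0.0612 over those of Alg1A and 0.212% ± 0.0235 over those of N2 (SD, 13 libraries each). It spanned 0.109% to 0.194% in Alg1E, 0.0831% to 0.305% in Alg1A and 0.156% to 0.251% in N2, so the Alg1E and N2 ranges overlapped at their edges. The lowest Alg1A shares were the libraries of 18 h (0.139%) and 19 h (0.0831%). Without miR-1820-5p the mean shares lay close together, at 0.0418% in Alg1E, 0.0474% in Alg1A and 0.0431% in N2.

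Only miR-1820-5p averaged over 100 CPM, and 8 late entries averaged 10 CPM or more. miR-1820-5p averaged 953 ± 187 CPM in Alg1E, 1817 ± 590 in Alg1A and 1835 ± 243 in N2. Its hairpin lies outside protein-coding genes on chromosome IV, from 7767461 to 7767567 (+ strand, WBcel235, the Ensembl name of the ce11 build). The next by reads were miR-4813-3p, miR-1822-3p and miR-1819-3p. mir-4813 (III, 4571640 to 4571716, + strand) lies within the 3′ UTR of idhg-1, which encodes an isocitrate dehydrogenase subunit. mir-1822 (II, 6015534 to 6015627, + strand) lies in an intron of ZK84.2. mir-1819 (X, 16207955 to 16208035, + strand) is intergenic, and mir-2212 (X, 16207829 to 16207888) ends 67 bases before it on the same strand.

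The places where the hairpins lie were set beside those of other entries by counts alone, with no test. Of 101 late hairpins placed on the annotation, 33 lie in an intron of a protein-coding gene on the same strand, 3 in an exon, 12 opposite a gene and 53 outside protein-coding genes. The 144 other hairpins placed had 32, 3, 21 and 88 in these classes. Another miRNA hairpin lies within 10 kb for 28 late hairpins (27.7%) and for 65 other hairpins (45.1%). Chromosome X holds 18 late and 51 other hairpins. The hairpins of miR-4920, miR-4924, miR-4926 and miR-4927 fill a whole intron, the arrangement of a mirtron.

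Which late miRNAs differ in the Alg1E mutant was asked against N2. Lower in Alg1E were miR-8210-5p, both arms of mir-2210, miR-2217b-3p and miR-2212-5p, by 3.96-fold to 7.01-fold, and the abundant miR-1822-3p, miR-1820-5p and miR-1819-3p. Higher were miR-4813-5p and miR-1822-5p, the minor arms of their hairpins, with miR-4937, miR-1830-3p, miR-1824-5p and miR-4936. edgeR's quasi-likelihood test called 17 of the 27 tested late entries at an adjusted p under 0.05, against 74.9% of all 243 tested miRNAs. Of these, 6 were higher (all miRNAs 36.2%) and 11 lower (all miRNAs 38.7%). The median log2 difference was -0.11 over the late entries and 0.01 over all tested miRNAs. Entries that pass the filter through the genotype where they are high had to differ: miR-8210-5p, miR-2210-5p and miR-2212-5p were above the cutoff in 0 Alg1E libraries. miR-2217b-3p averaged under the cutoff in Alg1E (1.91 CPM), against 8.80 CPM in N2 and 8.33 CPM in Alg1A. Its passing leaned on N2 and Alg1A. In the other direction, miR-4813-5p and miR-4937 averaged under the cutoff in N2 (3.26 and 2.76 CPM) and in Alg1A (2.88 and 2.90 CPM). Their passing leaned on Alg1E, where they are high. The counts of calls are therefore no measure of the 174 as a whole.

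By arm, edgeR called 2 higher and 9 lower of the 16 tested late major arms, against 10 higher and 86 lower of all 132 tested major arms. Of 6 tested late minor arms, 2 were higher (miR-4813-5p and miR-1822-5p) and 2 lower (miR-2210-5p and miR-1820-3p), against 73 higher and 4 lower of all 96. Of 5 late entries listed without arms, 2 were higher (miR-4936 and miR-4937) and 0 lower, against 5 higher and 4 lower of all 15. These counts share the filter just described.

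The abundant entries among those lower in Alg1E were well separated from N2. miR-1820-5p lay between 723 and 1329 CPM in Alg1E (median 877), and between 1458 and 2316 CPM in N2 (median 1810). The ranges did not overlap, and Alg1E was lower at every hour. Its log2 difference was -0.98 (SE 0.167, edgeR adjusted p = 4.28e-06). miR-1822-3p lay between 29.0 and 49.2 CPM in Alg1E (median 41.0), and between 63.8 and 102 CPM in N2 (median 85.3), again with no overlap. It differed by -1.10 (SE 0.111, edgeR adjusted p = 3.04e-10). For miR-1819-3p, Alg1E libraries spanned 21.7 to 46.1 CPM (median 33.0) and N2 libraries 34.8 to 96.4 CPM (median 55.6). These ranges overlapped, but at all 13 hours the Alg1E library was the lower one (log2 difference -0.89, SE 0.0962, edgeR adjusted p = 1.36e-09).

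The largest decreases were in entries averaging under 20 CPM, though other entries of low level, described further on, fell less. miR-2210-3p lay between 0.769 and 7.88 CPM in Alg1E (median 3.06), and between 12.2 and 22.0 CPM in N2 (median 15.5). Every N2 library exceeded every Alg1E library, and the log2 difference was -2.08 (SE 0.208, edgeR adjusted p = 2.71e-10). The other arm, miR-2210-5p, fell with it, at 1.15 ± 0.572 CPM in Alg1E and 5.81 ± 1.9 CPM in N2 (log2 difference -2.33, SE 0.275, edgeR adjusted p = 7.58e-09), also with no overlap. mir-2210 lies in the 3′ UTR of ZK593.2 (IV, 10914618 to 10914678, + strand). miR-2217b-3p averaged 1.91 ± 1.22 CPM in Alg1E and 8.80 ± 1.58 CPM in N2 (log2 difference -2.09, SE 0.250, edgeR adjusted p = 9.26e-09), with no overlap. The annotation holds 4 copies of mir-2217b, so its reads cannot be assigned to a locus. miR-2212-5p averaged 1.79 ± 0.708 CPM in Alg1E and 6.89 ± 2.36 CPM in N2 and was lower at 12 of 13 hours (log2 difference -1.99, SE 0.253, edgeR adjusted p = 3.39e-08).

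miR-8210-5p showed the largest decrease of the tested late entries. It was read 17 times in 8 of the 13 Alg1E libraries, against 162 times in 12 of the 13 N2 libraries. Its level spanned 0 to 1.66 CPM in Alg1E (median 0.318) and 0 to 10.7 CPM in N2 (median 3.85). The ranges overlapped, since 3 N2 libraries lay below the highest Alg1E library, and the N2 library of 29 h had no read. The log2 difference was -2.81 (SE 0.414, edgeR adjusted p = 4.50e-07). The mir-8210 hairpin (V, 14656500 to 14656636, - strand) sits within an intron of slc-25A29, a gene for a mitochondrial carrier of the solute carrier family.

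**Figure D2:**
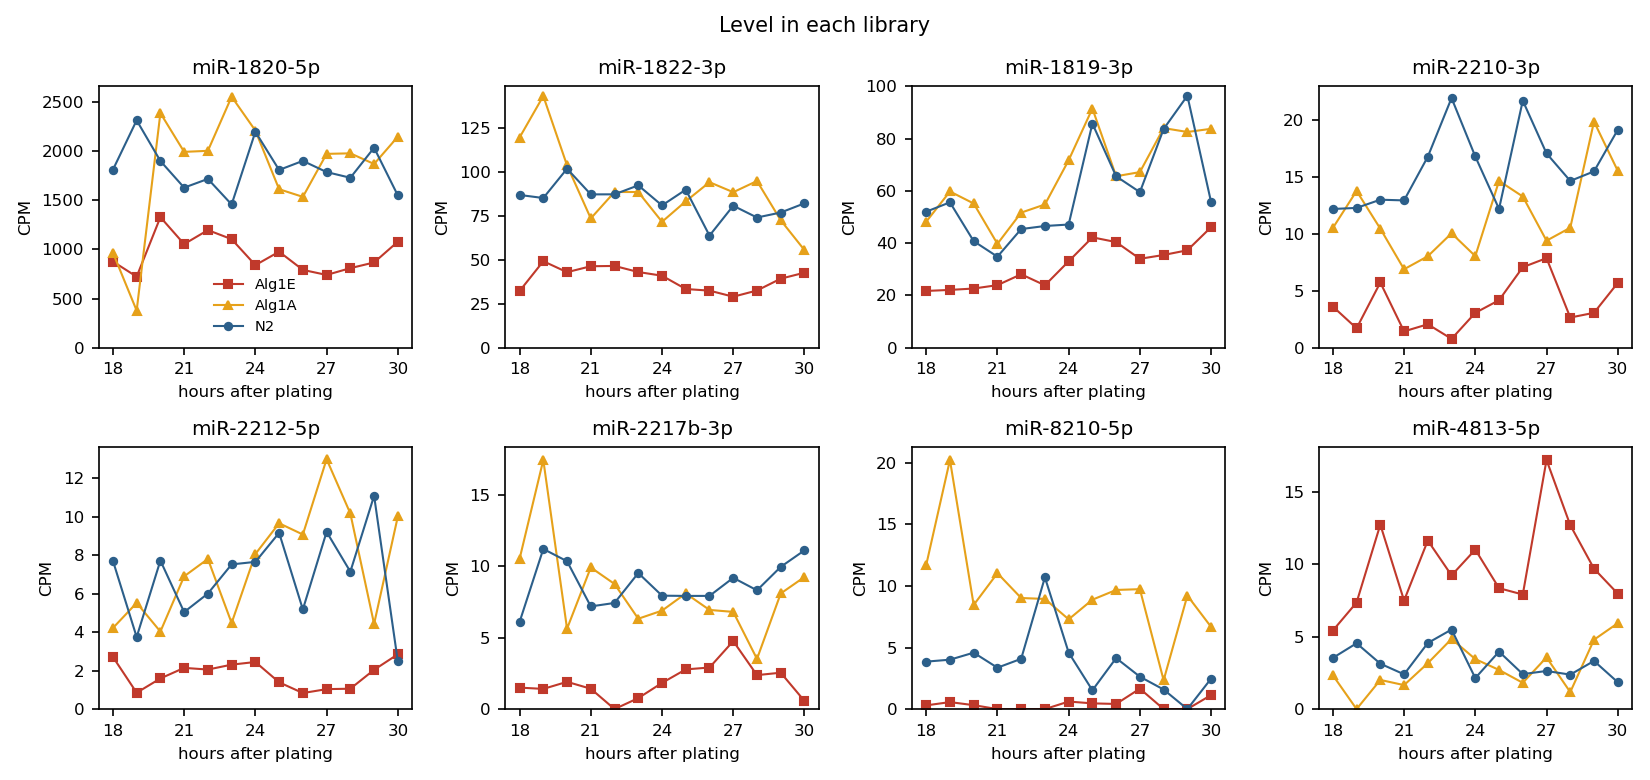
CPM against hours after plating for 8 late entries, with 1 point per library and a line per genotype. Alg1E lies below N2 at all 13 hours for miR-1820-5p, miR-1822-3p, miR-1819-3p, miR-2210-3p and miR-2217b-3p, and above it at all 13 hours for miR-4813-5p; Alg1A lies above N2 at 12 of 13 hours for miR-8210-5p.

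The smaller decreases were miR-2220-3p at -1.08 (edgeR adjusted p = 0.00209), miR-2953-3p at -0.56 (edgeR adjusted p = 0.0108) and miR-1820-3p at -0.54 (edgeR adjusted p = 0.0261). They depend on the scaling. With TMM factors taken only from the major arms of hairpins listed with both arms, they were -0.63, -0.13 and -0.10 and none of the 3 was called. Among the increases, miR-4813-5p lay between 5.42 and 17.2 CPM in Alg1E (median 9.23), and between 1.86 and 5.49 CPM in N2 (median 3.13). The ranges overlapped only at their edges, and Alg1E was higher at 13 of 13 hours (log2 difference 1.57, SE 0.222, edgeR adjusted p = 2.24e-07). miR-1822-5p averaged 13.1 ± 3.36 CPM in Alg1E and 6.0 ± 0.877 CPM in N2, higher at 12 of 13 hours (log2 difference 1.12, SE 0.142, edgeR adjusted p = 2.93e-08). miR-4937 averaged 6.57 ± 4.29 CPM in Alg1E and 2.76 ± 0.935 CPM in N2 (log2 difference 1.12, edgeR adjusted p = 0.00267). The remaining increases were miR-1830-3p (0.68), miR-1824-5p (0.47) and miR-4936 (0.33), of which miR-1824-5p was not called in 7 and miR-4936 in 11 of their alternative settings.

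All of these differences are relative to the scaling. The median of all miRNAs in Alg1E against N2 moved by -0.11 with RLE factors, by 0.28 with total counts and by 0.44 with the major-arm TMM factors just named. The split of 6 higher and 11 lower was 10 and 9 with total counts, and TMM from paired major arms gave 11 and 8. The 8 decreases of miR-8210-5p, miR-2210-5p, miR-2217b-3p, miR-2210-3p, miR-2212-5p, miR-1822-3p, miR-1820-5p and miR-1819-3p and the increases of miR-4813-5p, miR-1822-5p and miR-1830-3p were called under each scaling. For miR-8210-5p, miR-2210-5p and miR-2212-5p this is no independent sign, because they entered the test only through the genotypes where they are high. The increase of miR-4813-5p has a like limit, because its passing of the filter leaned on Alg1E. So does the decrease of miR-2217b-3p, whose passing leaned on N2 and Alg1A. Groups did not overlap for 5 tested late entries, against 31.7% of all tested miRNAs.

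**Figure D3:**
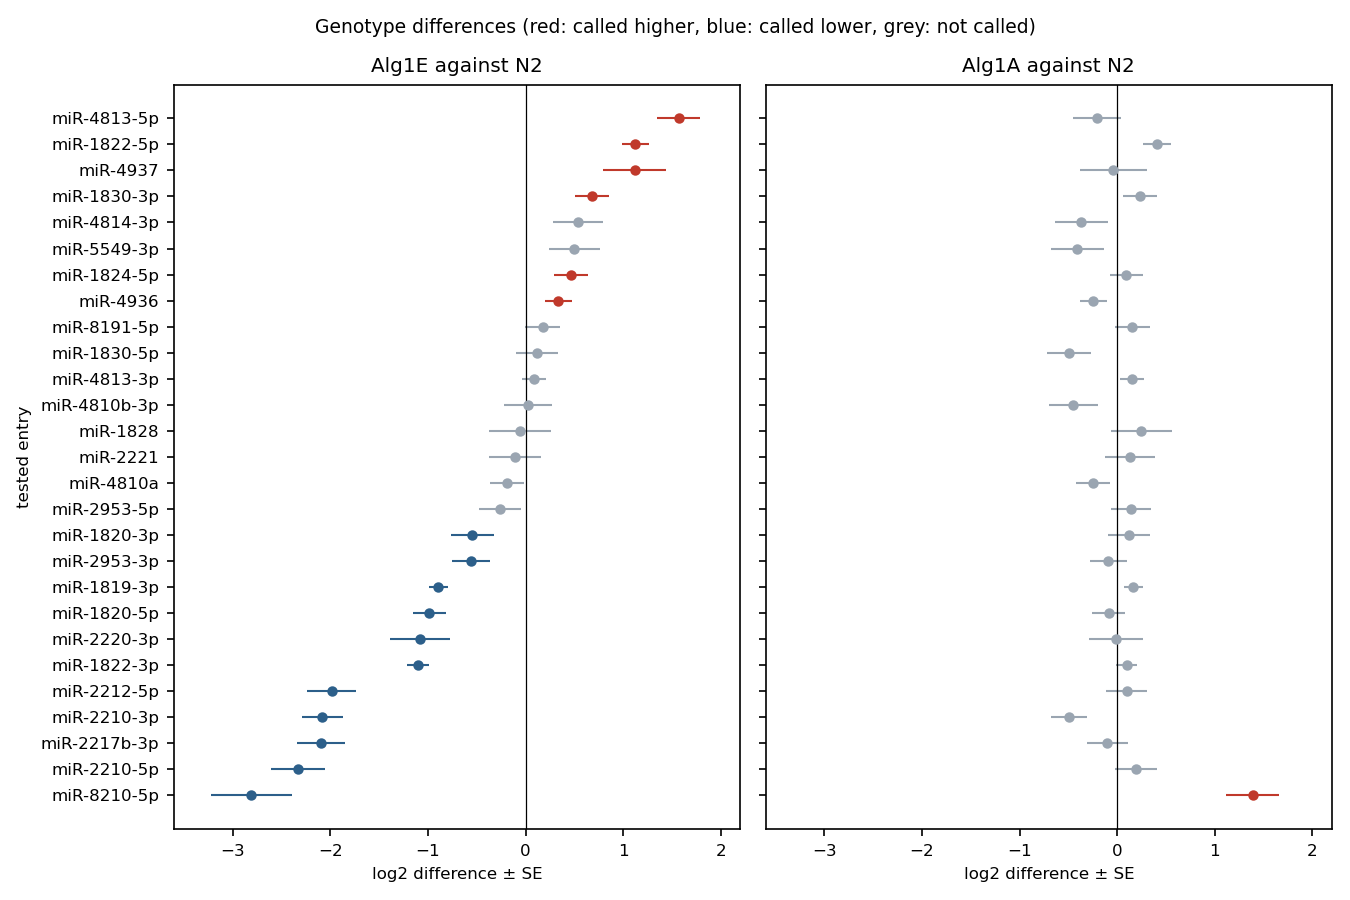
Log2 difference with its standard error for the 27 tested late entries in Alg1E against N2 (left) and Alg1A against N2 (right), ordered by the left panel. Points in red were called higher and points in blue lower at an adjusted p under 0.05; 17 are coloured on the left and 1, miR-8210-5p, on the right.

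Entries that were not called in Alg1E against N2 include the second most abundant one. miR-4813-3p lay between 35.2 and 125 CPM in Alg1E (median 82.9), and between 47.4 and 117 CPM in N2 (median 73.4), ranges that overlapped almost fully. Its log2 difference was 0.09 (95% interval -0.17 to 0.35, edgeR adjusted p = 0.540). With TMM from paired major arms it was 0.53 and called (edgeR adjusted p = 0.000932). miR-8191-5p, in an intron of C09B9.85 (IV, 5022928 to 5022995, - strand), averaged 22.2 ± 6.18 CPM in Alg1E and 19.6 ± 5.30 CPM in N2, with a difference of 0.18 (95% interval -0.20 to 0.55). It was called higher with total counts (0.45, edgeR adjusted p = 0.0303) and with TMM from paired major arms (0.62, edgeR adjusted p = 0.00567). miR-1828, from an intron of pash-1, the gene for the Pasha partner of Drosha, averaged 7.07 ± 6.84 CPM in Alg1E and 6.80 ± 3.92 CPM in N2.

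Alg1A was set against N2 in the same way. Only miR-8210-5p was called among the 27 tested late entries, and it was higher, the opposite of its direction in Alg1E. It lay between 2.35 and 20.2 CPM in Alg1A (median 9.02), and between 0 and 10.7 CPM in N2 (median 3.85). The ranges overlapped, but Alg1A was higher at 12 of 13 hours. Reads numbered 347 in Alg1A and 162 in N2, and the log2 difference was 1.39 (SE 0.273, edgeR adjusted p = 0.000786). The entry averaged 9.47 CPM in Alg1A, 3.66 CPM in N2 and 0.421 CPM in Alg1E. Its passing of the low-count filter thus leaned on Alg1A, where it is high. The filter limit given for the Alg1E comparison therefore holds for this call too, and it is no independent sign. edgeR called 8.64% of all tested miRNAs higher and 2.06% lower in this comparison, against 1 and 0 of the 27 late entries. At an unadjusted p under 0.05 there were 4 of the 27 late entries, against 25.9% of all tested miRNAs: miR-8210-5p, miR-1822-5p (0.40), miR-2210-3p (-0.49) and miR-1830-5p (-0.49). For these last 3 the adjusted p was 0.0664, 0.0881 and 0.155 by edgeR.

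The abundant late entries had similar levels in Alg1A and N2. miR-1820-5p spanned 377 to 2557 CPM in Alg1A (median 1979) and 1458 to 2316 CPM in N2 (median 1810). The lowest Alg1A values, 967 CPM at 18 h and 377 CPM at 19 h, lay below the 1536 to 2557 CPM of its other hours. The log2 difference was -0.09 (95% interval -0.43 to 0.26), and without those 2 libraries it was 0.09. miR-1822-3p differed by 0.10 (95% interval -0.13 to 0.32) and miR-1819-3p by 0.17 (95% interval -0.03 to 0.36). Without the libraries of 18 and 19 h, 2 late entries of 31 tested were called higher and 3 lower, in place of 1 and 0 of 27. Calls over all miRNAs rose as well in that setting, to 63 of 250 in place of 26 of 243.

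The comparison of Alg1E with Alg1A set the mutants against each other. edgeR called 20 of the 27 (all miRNAs 78.2%), 9 higher and 11 lower, against 39.1% higher and 39.1% lower of all tested miRNAs. miR-8210-5p differed most, at 0.421 ± 0.501 CPM in Alg1E and 9.47 ± 3.96 CPM in Alg1A, with no overlap (log2 difference -4.20, SE 0.379, edgeR adjusted p = 3.53e-11). miR-2210-5p (-2.52), miR-2212-5p (-2.08), miR-2217b-3p (-1.99) and miR-2210-3p (-1.59) followed. Groups did not overlap for 4 tested late entries, against 21.0% of all tested miRNAs. The filter limits given for the comparison with N2 hold here too. The differences of miR-8210-5p, miR-2210-5p and miR-2212-5p are no independent sign. miR-2217b-3p leaned on N2 and Alg1A to pass, and miR-4813-5p and miR-4937 leaned on Alg1E. The abundant miR-1822-3p (-1.20), miR-1819-3p (-1.06) and miR-1820-5p (-0.90) were lower in Alg1E as well, and so were miR-2220-3p (-1.07), miR-1820-3p (-0.67) and miR-2953-3p (-0.47). The increases were miR-4813-5p (1.77), miR-4937 (1.16), miR-5549-3p (0.91), miR-4814-3p (0.91), miR-1822-5p (0.72), miR-1830-5p (0.61), miR-4936 (0.58), miR-1830-3p (0.45) and miR-1824-5p (0.37). The call was lost for miR-1824-5p in 16, for miR-1830-3p in 8 and for miR-2953-3p in 9 of 24 alternative settings. The comparisons with N2 and with Alg1A share the Alg1E libraries, so their lists are not independent of each other. With TMM from paired major arms the split was 12 higher and 8 lower, a setting that moved the median of all miRNAs by 0.38 and called 168 of 243.

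Comparing the arms of 1 hairpin in the same library, as the ratio of minor to major arm, removes the scaling factor. Of the 94 hairpins with enough reads in both arms, 6 are late ones. In Alg1E against N2, limma called 2 of these 6 ratios higher (all hairpins 86.2%) and 1 lower (all hairpins 2.13%). For mir-1822 the 5p arm reached 36.2% of the reads of the 3p arm in Alg1E, 9.10% in Alg1A and 7.09% in N2. The log2 ratio was higher by 2.17 in Alg1E than in N2 (SE 0.160, limma adjusted p = 1.89e-13) at 13 of 13 hours. For mir-4813 the 5p arm reached 13.7% of the 3p arm in Alg1E, 3.71% in Alg1A and 4.60% in N2, a log2 difference of 1.48 between Alg1E and N2 (SE 0.285, limma adjusted p = 2.01e-05). In mir-1822 the minor arm was called higher while the major arm was called lower, and in mir-4813 the minor arm was called higher and the major arm was not called.

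The other late hairpins moved less. For mir-1830 (II, in an intron of paic-1, a gene of purine synthesis), both arms gave similar reads, and the 5p arm stood at 76.7% of the 3p arm in Alg1E, 61.6% in Alg1A and 102% in N2. Its log2 ratio was lower by limma in Alg1E (-0.61, adjusted p = 0.0191) and in Alg1A (-0.74, adjusted p = 0.0238) than in N2, the one late call in Alg1A, where limma called 20.2% of hairpins higher and 1.06% lower. mir-2210 had its minor arm at 29.5% of the major one in Alg1E, 58.5% in Alg1A and 36.6% in N2, and the log2 difference of -0.07 between Alg1E and N2 was not called. mir-2953 (0.34) and mir-1820 (0.39) were not called in Alg1E against N2 either. In Alg1E against Alg1A, limma called mir-1822 (1.87) and mir-4813 (1.98) higher and mir-2210 lower (-0.74, adjusted p = 0.0403), against 81.9% of hairpins higher and 4.26% lower. The median log2 difference in Alg1E against N2 was 0.37 over the 6 late ratios and 2.05 over all 94.

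**Figure D4:**
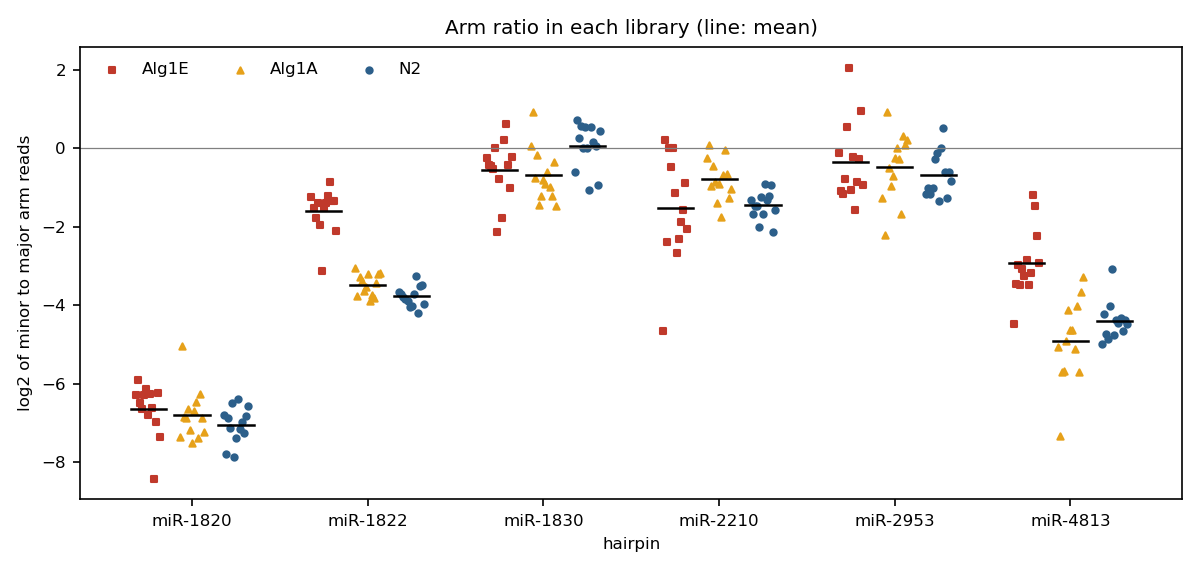
Log2 ratio of minor to major arm reads, with 0.5 added to each count, in each library for the 6 late hairpins with enough reads in both arms; the black line is the mean of 13 libraries. Alg1E lies above N2 in mir-1822 and mir-4813 and slightly below it in mir-1830.

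Late hairpins that lie close together were not all called alike. mir-1819 and mir-2212, 67 bases apart, both gave arms that were lower in Alg1E, by -0.89 and -1.99. On X, 10 late hairpins lie between 1872466 and 1880038 on the + strand, a span of 7573 bases that also holds mir-1018. They give 14 entries, of which 3 were tested and 2 had no read. miR-2220-3p was called lower in Alg1E against N2 (-1.08), with 134 reads in Alg1E and 323 in N2. Its neighbours miR-4810b-3p (0.03) and miR-4810a (-0.19) were not called, with 193 and 99 reads in Alg1E and 240 and 144 in N2. No test of the difference between these neighbours was made.

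To reach the entries below the filter, the 3 genotype comparisons were also fitted with no filter, over 404 entries with a read. Of 125 late entries that had been untested, edgeR called 3 higher and 11 lower in Alg1E against N2, where 24.5% of all fitted entries were higher and 26.0% lower. The entries named here were chosen after their values were seen. miR-4922 was read 2 times in Alg1E and 63 times in N2, a rate ratio of 0.0384 (95% interval 0.00455 to 0.145, counting error only). miR-1817, with 511 reads in all, had 60 reads in Alg1E and 268 in N2 (log2 difference -1.95). miR-2217a-3p, with 19 reads in Alg1E and 125 in N2, was lower like its relative miR-2217b-3p (log2 difference -2.37). miR-8210-3p, the other arm of mir-8210, had 20 reads in Alg1E and 62 in N2 and was called lower (-1.28). Higher was miR-1824-3p, with 75 reads in Alg1E and 17 in N2 (log2 difference 2.36).

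In Alg1A against N2 the same fit called 1 of these 125 higher and 1 lower, where 5.45% of all fitted entries were higher and 0.990% lower. miR-4927, from a hairpin that fills an intron of M01F1.4, had 181 reads in Alg1A and 84 in N2 (log2 difference 1.17, edgeR adjusted p = 0.0340). In Alg1E the same entry had 37 reads, 2.17 lower on the log2 scale than in Alg1A. miR-4929 was lower in Alg1A, with 16 reads against 53 in N2 (log2 difference -1.62, edgeR adjusted p = 0.0388). The summed level of all untested late entries averaged 63.2 ± 8.82 CPM for Alg1E, 73.9 ± 10.1 CPM for Alg1A and 80.0 ± 21.0 CPM for N2 (SD over 13 libraries), and the ranges overlapped.

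Change over the 13 hours was tested within each genotype with a natural spline. The test calls a change of any shape, and rising or falling is only the sign of the fitted change from 18 to 30 h. The low-count filter was the same, so an entry can pass it through the hours where it is high. Such a change is no independent sign. In N2, miR-5549-3p averaged under the cutoff over 18 to 20 and 21 to 23 h (1.76 and 2.77 CPM). In N2, miR-2221 did so over 24 to 27 and 28 to 30 h (2.69 and 1.10 CPM). In Alg1E edgeR called 5 of the 27 late entries (all miRNAs 26.7%), in Alg1A 9 (all miRNAs 45.7%) and in N2 3 (all miRNAs 34.6%). miR-5549-3p was called rising in every genotype. Over 18 to 20 h it averaged 4.72 CPM in Alg1E, 1.99 in Alg1A and 1.76 in N2, and over 28 to 30 h 13.1 CPM in Alg1E, 12.9 in Alg1A and 15.2 in N2. The fitted log2 change was 2.83 in Alg1E, 3.92 in Alg1A and 3.87 in N2 (edgeR adjusted p = 0.00489, 0.00222 and 0.000287). miR-1819-3p was the other entry called rising in all 3, by 0.94 in Alg1E, 0.29 in Alg1A and 0.35 in N2. Its call in Alg1A was lost in 8 of 21 alternative settings, and its change ran from 0.24 to 0.86 over all of them. The mir-5549 hairpin is intergenic on III, from 6971976 to 6972085 (- strand).

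miR-2221, from an intergenic hairpin on X, was called falling in Alg1A (-2.83) and N2 (-2.98) and not in Alg1E (-0.98, edgeR adjusted p = 0.167). It averaged 4.66 CPM in Alg1E, 6.08 in Alg1A and 5.24 in N2 over 18 to 20 h, and 2.08 CPM in Alg1E, 1.76 in Alg1A and 1.10 in N2 over 28 to 30 h. The difference between its time courses in Alg1E and N2 was not called (edgeR adjusted p = 0.483). miR-4813-3p was called falling in Alg1E (-1.09) and Alg1A (-0.71), while in N2 it changed by -0.95 with an edgeR adjusted p of 0.0701. miR-4937 was called rising in Alg1E alone, with 2.86 CPM at 18 to 20 h and 11.5 CPM at 28 to 30 h (2.43, edgeR adjusted p = 0.00676). Its passing of the filter leaned on Alg1E, where its mean was under the cutoff only over 18 to 20 h. This rise is therefore no independent sign. The difference of miR-4937 in time course from N2 was not called (edgeR adjusted p = 0.223). miR-4810a was called in Alg1E as well, with a fitted change of -0.16, but the call was lost in 11 of 19 alternative settings, and the change ran from -1.30 to 0.00308 over all of them. It averaged 2.95 CPM in Alg1E, 2.70 in Alg1A and 3.30 in N2, each under the filter cutoff.

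In Alg1A, miR-1822-3p (-1.52), miR-1822-5p (-1.36), miR-1830-5p (-1.79), miR-2210-5p (-0.96) and miR-4810b-3p (-2.40) were also called, with a fitted fall. Not all fell steadily over 18 to 20, 21 to 23, 24 to 27 and 28 to 30 h. In these windows miR-2210-5p averaged 9.61, 4.36, 6.43 and 7.39 CPM, and miR-1830-5p 6.18, 2.73, 5.18 and 3.62 CPM. Several of the Alg1A calls changed with the early libraries. Without the Alg1A libraries of 18 and 19 h, 3 of the 9 entries remained called: miR-5549-3p (2.0), miR-4813-3p (-0.81) and miR-2210-5p, which then rose by 0.34 (edgeR adjusted p = 0.0306). The fitted changes of miR-2221 (-2.60, edgeR adjusted p = 0.0698) and miR-1819-3p (0.86, edgeR adjusted p = 0.0592) kept most of their size or grew while losing the call. Those of miR-1822-3p (-0.73), miR-1822-5p (-0.47), miR-1830-5p (-0.05) and miR-4810b-3p (-1.24) were nearer 0 than with those libraries. miR-1822-3p stood at 120 and 143 CPM in those libraries and at 55.6 to 104 CPM at the other hours.

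**Figure D5:**
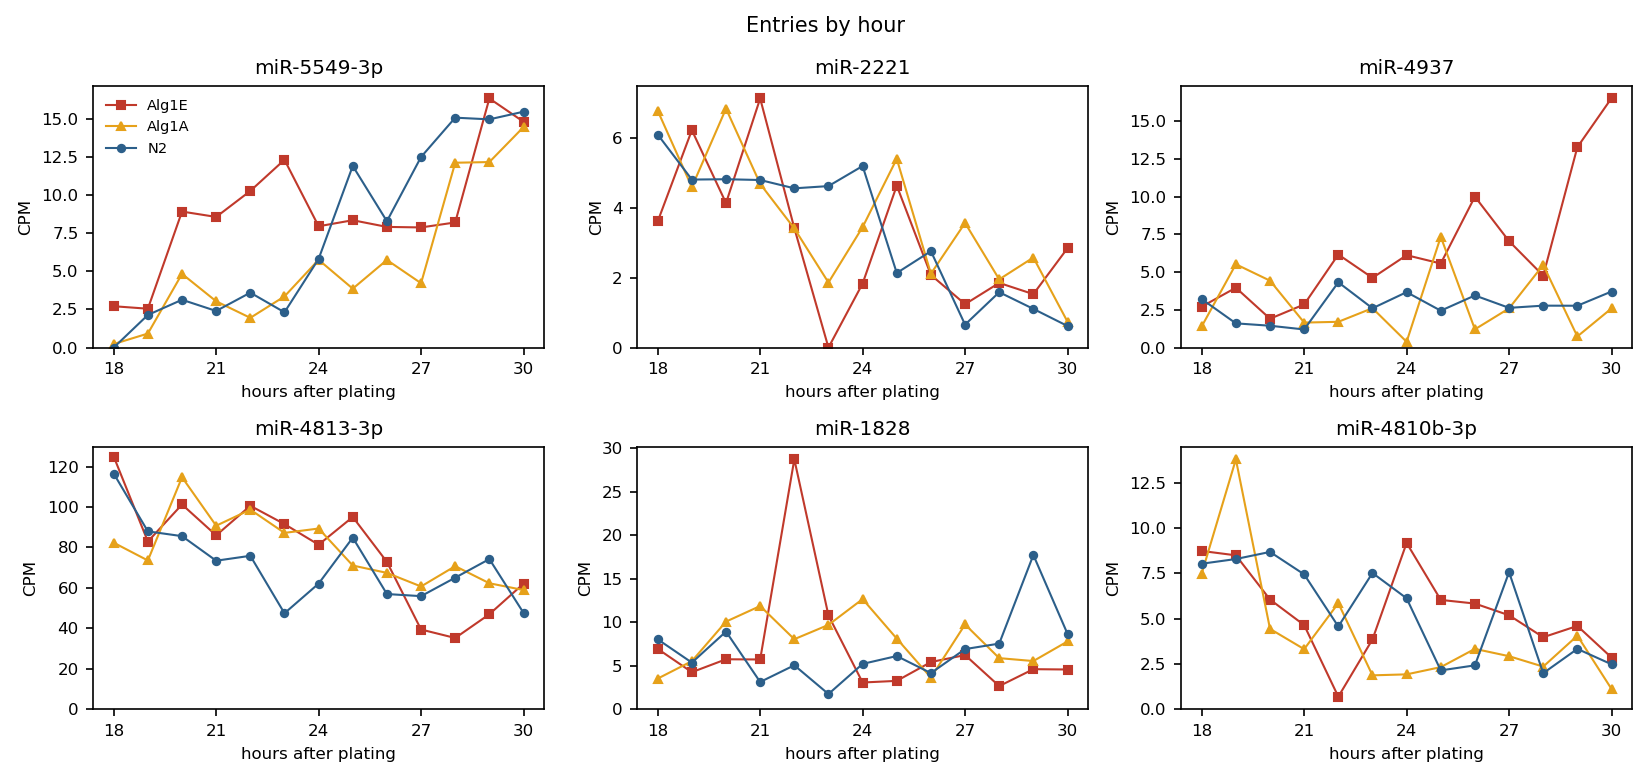
CPM against hours after plating for 6 late entries, with 1 point per library and a line per genotype. miR-5549-3p rises and miR-2221 declines over the hours, miR-4937 reaches its highest levels in the latest Alg1E libraries, and miR-1828 has single high libraries in Alg1E at 22 h and in N2 at 29 h.

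The difference between time courses was tested directly. Between Alg1E and N2, edgeR called 3 of the 27 late entries (all miRNAs 34.2%): miR-5549-3p, miR-2217b-3p and miR-1828. The filter limit given for miR-2217b-3p in the Alg1E comparison holds for this call too. No window of hours was tested on its own. Over 18 to 20 h miR-5549-3p averaged 4.72 CPM in Alg1E and 1.76 CPM in N2. Over 21 to 23 h it averaged 10.4 CPM in Alg1E and 2.77 CPM in N2, and over 24 to 27 h 8.02 CPM in Alg1E and 9.62 CPM in N2. Between Alg1A and N2, 0 of the 27 were called by edgeR (all miRNAs 1.65%), 4 had an unadjusted p under 0.05, and DESeq2 called 2. The smallest p-values there belonged to miR-1828, miR-1822-3p, miR-2210-5p, miR-1820-5p and miR-4813-3p (edgeR adjusted p = 0.0764, 0.146, 0.156, 0.170 and 0.268). With 1 hour left out of Alg1E against N2, miR-5549-3p stayed called at each of the 13 hours, miR-2217b-3p at 7 and miR-1828 at 7. The next smallest p-values in Alg1E against N2 belonged to miR-1820-5p (edgeR adjusted p = 0.0832) and miR-2220-3p (edgeR adjusted p = 0.143).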

How the data were processed

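The authors deposited 1 table of whole-number read counts per mature miRNA in 39 libraries, with no normalization. The library kit was QIAseq miRNA, per the labels. The tools listed, without their roles, are HTSeq, SAMtools 1.9, Bowtie 1.2.2 and cutadapt 2.3, and the build is ce11, per the submitters' processing notes. How reads were mapped, on which strand they were counted, against which miRNA annotation, and whether molecular identifiers were used: these are not given in the sources. If copies were not collapsed, PCR duplicates count as reads, and related entries such as miR-2217a-3p and miR-2217b-3p may share reads. The 5 summary entries that name no gene did not enter library sizes or tests; reads without a feature are given with the results.

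Counts were analysed with edgeR 4.0.16 in R 4.3.3: TMM scaling, filterByExpr by genotype, and the quasi-likelihood test of genotype plus hour as a factor over all 39 libraries, with Benjamini-Hochberg adjustment over all 243 tested miRNAs and a threshold of 0.05, two-sided. Time was tested with natural splines of 3 degrees of freedom, and differences in time course with their interaction with genotype. A fitted change is the value at 30 h minus that at 18 h. CPM are after TMM. Arm ratios were tested with limma 3.58.1 on log2 ratios (prior count 0.5) where both arms averaged 10 or more reads; the minor arm is the one with the lower read total. DESeq2 1.42.0 was an alternative, beside other scalings, filters, curves and subsets of hours. Detection at 1 depth is the hypergeometric expectation. Loci come from the WBcel235 annotation by name. The scripts were tested on simulated counts.

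Hours are not replicates of each other: with 1 library per genotype and hour, the residual spread of the model stands in for replicate error. Neighbouring hours had residuals with a median correlation of 0.17 for late entries in Alg1E against N2 (all tested miRNAs 0.37), which makes p-values too small. The members and lists were chosen with earlier results of these data known. Entries are named if they are among the 12 with the highest mean CPM, are called in a genotype comparison or time test, have 1 of the 5 smallest p-values of a time course test, or belong to a hairpin in the arm test; others are said to be chosen after their values were seen.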

Additional observations from a re-analysis of the deposited data

Results flagged for a closer look

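In 3 late entries the time course differed between Alg1E and N2 by the edgeR interaction test. For miR-5549-3p (edgeR adjusted p = 0.00957), Alg1E was above N2 over 21 to 23 h, at 10.4 against 2.77 CPM, and the genotypes were close over 28 to 30 h, at 13.1 CPM in Alg1E and 15.2 CPM in N2. For miR-2217b-3p (edgeR adjusted p = 0.0295), Alg1E averaged 1.61, 0.732, 3.07 and 1.83 CPM over 18 to 20, 21 to 23, 24 to 27 and 28 to 30 h. In the same windows N2 averaged 9.23, 8.06, 8.26 and 9.81 CPM. Each of these Alg1E means lay under the cutoff of the low-count filter, which the entry passed leaning on N2 and Alg1A. Its time course call therefore rests on low counts in Alg1E and is no independent sign. For miR-1828 (edgeR adjusted p = 0.0331), Alg1E was above N2 over 21 to 23 h, at 15.1 against 3.30 CPM, and below it over 28 to 30 h, at 3.93 against 11.3 CPM. Alg1A also lay above N2 over 21 to 23 h (9.86 CPM) and below it over 28 to 30 h (6.39 CPM). The time course of miR-1828 in Alg1A against N2 was not called (edgeR adjusted p = 0.0764). That entry had 28.7 CPM in the Alg1E library of 22 h and 17.7 CPM in the N2 library of 29 h, the highest value of each genotype. With any 1 hour left out, miR-5549-3p kept its call, with an edgeR adjusted p between 0.00407 and 0.0357. The call of miR-2217b-3p was lost without 25, 26, 27, 28, 29 or 30 h (highest edgeR adjusted p = 0.222), and that of miR-1828 without 22, 23, 27, 28, 29 or 30 h (highest edgeR adjusted p = 0.136).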

How the results depend on the processing

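Alternatives changed 1 choice at a time, and leaving out each hour in turn was chosen after seeing the data. The labels give no replicate numbers, and hour was the shared factor of the genotype comparisons. Without it, 6 higher and 11 lower late entries were called in Alg1E against N2, 1 and 0 in Alg1A against N2, and 7 and 11 in Alg1E against Alg1A. In Alg1E against N2, 6 higher and 11 lower late entries became 10 higher with total counts, 11 higher with TMM from paired major arms, 22 lower with no filter, and 0 higher and 4 lower with a mean of 10 CPM or more, where fewer entries were tested. In Alg1A against N2, 1 higher and 0 lower became 3 higher with total counts, 2 with TMM from paired major arms, 2 higher and 1 lower with no filter, 0 higher with a mean of 10 CPM or more, 2 higher with hour as a spline, 2 higher and 3 lower without the Alg1A libraries of 18 and 19 h, and 2 lower over 20 to 30 h. In Alg1E against Alg1A, 9 higher and 11 lower became 22 lower with no filter, 1 higher and 4 lower with 10 CPM or more, and 5 higher over 18 to 23 h.

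Over time, 5 calls in Alg1E became 2 and 9 in Alg1A became 3 with 10 CPM or more, and 3 in Alg1A without the libraries of 18 and 19 h. In N2, 3 became 5 with total counts, TMM from paired major arms, DESeq2 or a spline of 4 degrees of freedom, 7 with no filter, 6 with a line and 1 with 10 CPM or more. The 3 differences in time course of Alg1E against N2 became 0 with 10 CPM or more and 1 with a line, and the 0 of Alg1A against N2 became 1 with total counts and 2 with DESeq2. With 3 or more reads required, the median number of late entries detected was 44 in Alg1E, 55 in Alg1A and 57 in N2, in place of 74, 85 and 87.

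With each hour left out in turn, Alg1E against N2 had 4 to 7 higher and 10 to 11 lower, Alg1A against N2 1 to 2 higher and 0 to 1 lower, and Alg1E against Alg1A 7 to 9 higher and 10 to 12 lower. Time calls ranged from 3 to 6 in Alg1E, 6 to 9 in Alg1A and 3 to 6 in N2, and time course calls from 1 to 3 in Alg1E and 0 to 1 in Alg1A.

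Signs also turned, in most cases for entries that were not called. In Alg1E against N2 these were miR-4813-3p (-0.0299 with RLE, -0.028 with DESeq2, -0.071 over 24 to 30 h) and miR-5549-3p (-0.24 over 24 to 30 h; called higher over 18 to 23 h at 1.70, with total counts at 0.76 and with TMM from paired major arms at 0.93), beside the called miR-1820-3p (0.045 over 18 to 23 h). In Alg1A against N2 they were miR-1820-5p (0.014 with total counts, 0.092 without 18 and 19 h, 0.15 over 20 to 30 h, 0.055 over 24 to 30 h, -0.16 to 0.080 with single hours left out), miR-1822-3p (-0.035 without 18 and 19 h, -0.019 over 20 to 30 h), miR-2953-3p (0.12 over 18 to 23 h, -0.19 to 0.015 with single hours left out), miR-5549-3p (0.00099 over 18 to 23 h) and miR-8191-5p (-0.0044 over 24 to 30 h). In Alg1E against Alg1A they were miR-8191-5p (-0.0816 with RLE, -0.013 with no filter, -0.044 with 10 CPM or more, -0.087 with DESeq2, -0.026 with genotype alone, -0.024 with hour as a spline, -0.0592 over 18 to 23 h, -0.083 to 0.12 with single hours left out) and miR-4813-3p (0.12 with total counts, 0.32 with TMM from paired major arms, 0.10 over 18 to 23 h, -0.14 to 0.0055 with single hours left out). Among called values, the fitted change of miR-4810a in Alg1E was -0.67 to 0.0031 with single hours left out, that of miR-2210-5p in Alg1A was 0.34 without 18 and 19 h. The arm ratio of mir-2210 in Alg1E against N2, not called, was 0.24 with a prior count of 2. The cause was not tested. Depth limits the 147 entries that were not tested, for which differences were mostly not detectable.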
